A study of Mus musculus with 16 samples.

Results

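The rows examined here are the small RNAs that the deposited table of mouse airway epithelial cultures placed in the class piRNA under a name beginning with DQ. There were 183 such rows among the 1269 rows of the table. The 183 rows were set by class and name alone, though with earlier results of these data known. Rows named singly below were picked by their values, as the processing section tells. A further 2 rows of the class with another kind of name held 3 reads in all and were left out. Small RNA libraries had been made from primary tracheal epithelial cells grown on porous membranes and exposed to air, which lets basal cells turn into ciliated and secretory cells. One genotype was p73 KO, taken from animals in which p73 was absent from all tissues, and the other was WT. Cultures of each genotype were collected at days 0, 4, 7 and 14 after exposure to air, with 2 biological replicates (numbers 2 and 3) in each of the 8 groups, which gave 16 libraries. The study asked what TAp73, a transcription factor of the p53 family, does in the formation of multiciliated cells.

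piRNAs are small RNAs that bind PIWI proteins, the germ-line branch of the Argonaute family. They are known for guiding the silencing of transposons in the germ line, and their catalogues were built largely from testis small RNAs. They are processed from single-stranded precursors and do not need Dicer, unlike miRNAs, which are cut from hairpins and act on messenger RNAs through a short seed near the 5′ end. Epithelial cells of the airway express miRNAs abundantly, and a small RNA found in such cells under a piRNA name can also match another annotated RNA.

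Sequences and positions of the DQ rows themselves are not used here, because the table gave them a chromosome and no start, end or strand. All 1084 rows of the other classes had a position. The most abundant DQ row and the next one had, library by library, almost the read counts of 2 miRNAs, and those miRNAs are shown because most of the piRNA-annotated reads turn on them. The mature sequences are RefSeq's for GRCm38.p6, 5′ to 3′, with the seed (bases 2 to 8) in capitals.
miR-182-5p: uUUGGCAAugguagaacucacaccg
miR-25-3p: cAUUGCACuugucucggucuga
The first lies at chr6:30165962-30165986 on the minus strand, in the gene Mir182, which is clustered with miR-183 and miR-96 and known from sensory and ciliated cells. The second lies at chr5:138165332-138165353 on the minus strand, in Mir25, which stands inside the DNA replication gene Mcm7 and overlaps an exon that the annotation gives to that gene. The 2 miRNAs do not share a seed. The RefSeq positions equalled those in the deposited table (mm10).

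The smallest library, WT day 0 replicate 2, had 197497 reads over all rows, and the largest, WT day 14 replicate 2, had 1777271. The small RNA table does not measure the p73 transcript, so the genotype labels were not checked by it. Airway epithelial identity was checked with 6 miRNAs of the miR-200 family and miR-205. These were all in the table and together made up 24900 to 86400 RPM (reads scaled to a common library total) in each library. Their sum was lower at day 14 (28600 to 30300 RPM in KO, 24900 to 27200 in WT) than at day 0 (65300 to 86400 in KO, 56500 to 86400 in WT). Of 16 miRNAs known mainly from testis and germ cells, 2 were in the table. Those 2, miR-871-3p and miR-470-5p, summed to 13.3 and 15.1 RPM in KO at day 4, against 3.3 and 4.23 in WT at day 4. That difference rests on 15 reads in KO and 3 in WT, and their part in any piRNA value at day 4 was not tested. At day 0 the sum was at most 2.18 RPM, and neither row was listed at days 7 and 14. Of 6 blood-cell miRNAs 3 were in the table, at no more than 62.6 RPM together, and of 5 miRNAs of mesenchyme and muscle 3 were, at no more than 97.8 RPM. The blood rows listed were 3 at day 0, 1 at day 4 and 0 at days 7 and 14. Those of mesenchyme and muscle were 3 at days 0 and 4, 1 at day 7 and 0 at day 14. These limits thus cover the listed rows alone.

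The piRNA-annotated reads were very unevenly spread over the 183 rows. Over the 16 libraries the rows held 237728 reads. DQ562379, listed on chromosome 2, took 208760 of these and DQ695413, on chromosome 8, took 14650. DQ714439, on chromosome 15, had 9728 reads and DQ726397, on the X chromosome, had 3279. The other 179 rows shared 1311 reads, with a median of 2 reads a row over all libraries. Of those rows, 79 rested on 1 read, 123 on 3 reads or fewer, and 2 on 100 reads or more.

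**Figure D1:**
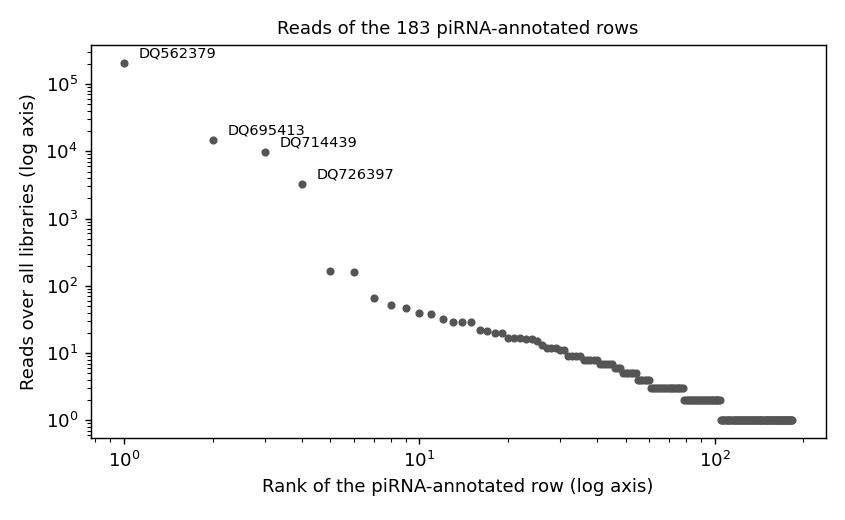
Reads of each of the 183 piRNA-annotated rows summed over the 16 libraries, ranked from most to least; both axes are logarithmic and each point is 1 row. DQ562379 with 208760 reads stands far above DQ695413 with 14650, and 79 rows lie on the floor of 1 read.

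Rows were not listed evenly over the days. At day 0, 176 of the 183 rows had values, at day 4 there were 62, and at days 7 and 14 there were 5 each. DQ562379, DQ695413, DQ714439 and DQ726397 were listed at every day. A further 121 rows were listed at day 0 alone, 49 at days 0 and 4, and 7 at day 4 alone. DQ541610 was listed at days 0, 4 and 7, and DQ698457 at days 0, 4 and 14. This listing moved with the lowest values that the table kept for any class: the lowest 4-library mean of any listed row was 0.15 and 0.48 at days 0 and 4, but 16.41 and 14.97 at days 7 and 14. A row missing at day 7 or 14 can thus have had reads below that level, and no disappearance over time can be read from it.

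The DQ rows named 20 chromosomes. Chromosome 8 had 21 rows, chromosome 3 had 19, chromosome 10 had 18, and chromosomes 4 and X had 17 each. With no start or end given, closeness of rows to each other or to genes could not be measured.

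DQ562379 had nearly the same number of reads as miR-182-5p in every library. In KO libraries the row and the miRNA had 22901 and 22767 reads (day 0, replicate 2), 20068 and 19888 (day 0, replicate 3), 16176 and 16085 (day 4, replicate 2), and 11081 and 11033 (day 4, replicate 3). Later KO libraries had 10695 and 10597 reads (day 7, replicate 2), 21603 and 21481 (day 7, replicate 3), 5426 and 5387 (day 14, replicate 2), and 8684 and 8628 (day 14, replicate 3). The row was the higher of the pair in each of these, by 39 to 180 reads. In WT libraries the numbers for the row and the miRNA were 8476 and 8448 (day 0, replicate 2), 5718 and 5612 (day 0, replicate 3), 13256 and 13205 (day 4, replicate 2), and 7154 and 7088 (day 4, replicate 3). At the later days WT had 17345 and 17256 (day 7, replicate 2), 13120 and 13030 (day 7, replicate 3), 20645 and 20539 (day 14, replicate 2), and 6412 and 6381 (day 14, replicate 3).

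Across the 16 libraries DQ562379 exceeded miR-182-5p in 16 of 16, by 28 to 180 reads. That excess was 0.33% to 1.85% of the row's reads in a library and 0.639% over all libraries, 1335 reads in total. The largest relative excess was in WT day 0, replicate 3, with 106 reads of 5718. The next closest row of the table to DQ562379 was miR-27b-3p, which differed from it by up to 29.9% in a library.

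DQ695413 followed miR-25-3p even more closely. In KO libraries the row and the miRNA had 1599 and 1599 reads (day 0, replicate 2), 1629 and 1628 (day 0, replicate 3), 1300 and 1298 (day 4, replicate 2), 687 and 687 (day 4, replicate 3), 765 and 764 (day 7, replicate 2), 1663 and 1662 (day 7, replicate 3), 394 and 394 (day 14, replicate 2), and 647 and 643 (day 14, replicate 3). In WT libraries they had 579 and 579 (day 0, replicate 2), 464 and 463 (day 0, replicate 3), 798 and 797 (day 4, replicate 2), 459 and 458 (day 4, replicate 3), 1121 and 1119 (day 7, replicate 2), 803 and 803 (day 7, replicate 3), 1322 and 1321 (day 14, replicate 2), and 420 and 420 (day 14, replicate 3). Counts were equal in 6 libraries, and in the other 10 the row was higher by at most 4 reads. Its next closest row, miR-151-5p, differed by up to 50.2%.

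These were the 2 pairs, out of 42778 pairs among the 293 rows that were listed in all 16 libraries with at least 100 reads in all, whose reads lay within 2% of each other in every library. That count leaves out 5 predicted miRNA rows, each with the values of a named miRNA; with them put back, 7 pairs lay within 2%, of which 5 joined a predicted row to its named miRNA and 2 held a DQ row. Both miRNAs lie on another chromosome than the one named for their DQ row. Whether the same sequenced reads entered both rows of a pair was not tested, because the table holds no read sequences. DQ714439 and DQ726397 had no such partner: their closest rows, miR-141-3p and miR-148b-3p, differed from them by up to 72.9% and 106% in a library.

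**Figure D2:**
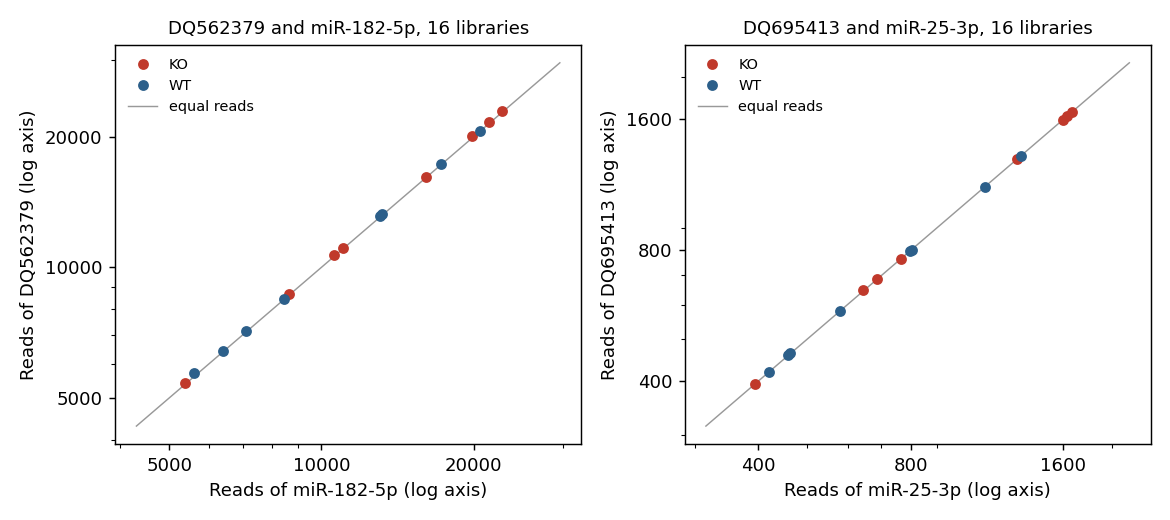
Reads of DQ562379 against miR-182-5p (left) and of DQ695413 against miR-25-3p (right), 1 point per library, KO in red and WT in blue, both axes logarithmic, with the line of equal reads. All 16 points of each panel lie on or just above the line; the highest excess is 1.85% for DQ562379 and 0.618% for DQ695413.

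A low row had the same feature. DQ719481, listed on chromosome 17 at days 0 and 4, had the same number of reads as miR-7677-3p in each of the 8 libraries of those days, 29 reads in all. Here the chromosomes were the same, as miR-7677-3p lies at chr17:27091289-27091311 in Mir7677, within a coding exon of Itpr3, the gene of a calcium release channel. Leaving out the 5 predicted rows, this was the single pair with identical reads among the 505 rows with at least 20 reads at those days, of which 19 were piRNA-annotated; with those rows put back there were 6 such pairs.

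Because of their abundance, DQ562379 and DQ695413 set the share of the library that carried a piRNA name. The class made up between 1.32% of the summed values of a library (WT day 14, replicate 2; 95% Wilson interval 1.31% to 1.34%) and 4.86% (KO day 0, replicate 3; 4.8% to 4.92%). These intervals cover counting error alone. DQ562379 by itself was 79.4% to 91.4% of the class in a library. Together with DQ695413 it was 85.2% to 97.7%, and the 4 rows listed at every day were 97.6% to 99.95%. Without DQ562379 and DQ695413 the class was 0.0866% to 0.2517% of a library.

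**Figure D3:**
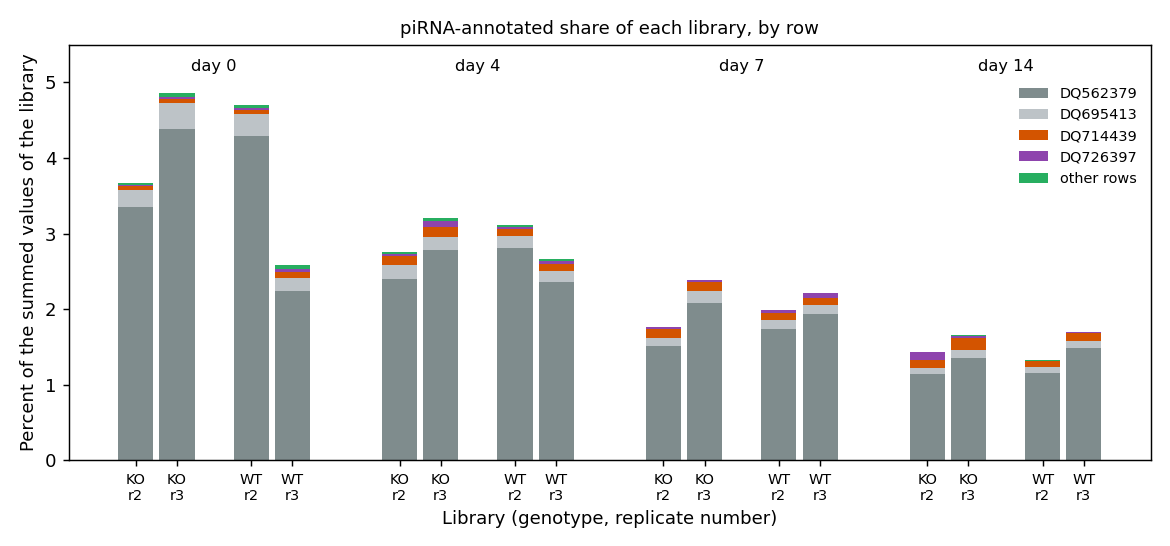
Percent of the summed values of each library in the piRNA-annotated rows, stacked by row, for 16 libraries ordered by day with KO left of WT. DQ562379 (dark grey) fills most of every bar; the bars run between 1.32% and 4.86%.

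The share did not differ between genotypes beyond the spread of the libraries. KO libraries had 3.67% and 4.86% at day 0, against 2.59% and 4.7% in WT. At day 4 the shares were 2.75% and 3.21% in KO and 2.66% and 3.11% in WT. Over the rows listed at every day, the mean over days of the KO minus WT difference was 0.181 percentage points (two-sided exact permutation test within days, p = 0.568, 1296 arrangements). Day by day, the difference was 0.637 points (day 0), 0.0846 (day 4), -0.0286 (day 7) and 0.0302 (day 14). Without WT day 0, replicate 3, the mean difference was -0.0874 points, so its sign rests on that library. Without DQ562379 and DQ695413 the difference was 0.0291 points (p = 0.13, exact permutation test).

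From day 0 to day 14 the share was lower in both genotypes. The day 14 minus day 0 difference was -2.71 points in KO and -2.11 points in WT, and its mean of -2.41 points had an exact permutation p of 0.0556, the smallest that 36 arrangements allow. Without DQ562379 and DQ695413 the difference was 0.069 points (p = 0.111, exact permutation test). The denominator changed over the same days: miR-92b-3p averaged 283400 ± 12450 day-aligned reads in KO at day 14, against 6054 ± 984.3 in KO at day 0, and 380600 ± 55510 in WT at day 14, against 7552 ± 1302 in WT at day 0 (SD, n = 2 each). With miR-92b-3p left out of the denominator the share difference was -0.94 points (p = 0.222, exact permutation test). With only the rows that are not miRNAs as denominator it was -14.97 points (p = 0.167, exact permutation test), -26.02 in KO and -3.92 in WT. The part of miR-92b-3p in the lower share was not tested.

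Levels of single rows are given as day-aligned normalised reads: the authors' values, normalised within each day, moved by 1 factor per day so that days could be compared. Differences were tested with limma on the log2 of these values plus 1, fitted to all 16 libraries, with p-values adjusted by the Benjamini-Hochberg method over all small RNAs tested, and a threshold of 0.05. At each day 5 piRNA-annotated rows were abundant enough for a test (10 or more in at least 2 of 4 libraries). These were the 4 rows listed at every day, with DQ698457 at days 0 and 14 and DQ541610 at days 4 and 7. In these bulk cultures fewer cells of a type and less RNA per cell cannot be told apart.

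DQ714439 was higher at the later days than at day 0, in both genotypes. KO libraries had 246.1 and 221.6 at day 0, 562.9 and 578 at day 4, 697.9 and 637.3 at day 7, and 620 and 887.9 at day 14. WT libraries had 219.6 and 275.7 at day 0, 430.9 and 518.3 at day 4, 572.7 and 620.5 at day 7, and 584.3 and 739.4 at day 14. In either genotype every later library was above both day 0 libraries. KO means were 570.5 ± 10.7 at day 4, 667.6 ± 42.9 at day 7 and 754 ± 189 at day 14, against 233.8 ± 17.3 at day 0 (SD, n = 2 each). WT means were 474.6 ± 61.8, 596.6 ± 33.8 and 661.8 ± 110 at the same days, against 247.6 ± 39.7 at day 0. Of the 7 miR-34b, miR-34c and miR-449 rows, which mark multiciliated cells, all had values on day 4 only. Day 7 had 5 of them, while days 0 and 14 had 6 each. The listed rows summed to 2820 to 3240 RPM in the day 0 libraries and 11500 to 26300 RPM in the later libraries. These sums thus do not cover the same rows throughout, and they do not count multiciliated cells in either genotype. The part of these miRNAs in the DQ714439 values was not tested.

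In KO the log2 fold change of DQ714439 over day 0 was 1.28 at day 4 (SE 0.27, limma adjusted p = 0.0147), 1.51 at day 7 (adjusted p = 0.00193) and 1.66 at day 14 (adjusted p = 0.000493). In WT it was 0.94 at day 4, which missed the threshold (adjusted p = 0.0822), 1.27 at day 7 (adjusted p = 0.00905) and 1.41 at day 14 (adjusted p = 0.00278). The 3 comparisons of a genotype share its day 0 libraries. DQ714439 was the single piRNA-annotated row called in KO at days 4 and 7 and in WT at days 7 and 14. In WT at day 4, 0 were called. At an unadjusted p under 0.05 there was 1 in WT at day 4, against 41 of all 312 rows. The background share called in either direction was 3.53% of 312 rows in KO at day 4, 10.1% of 297 in KO at day 7, 2.56% of 312 in WT at day 4, 7.41% of 297 in WT at day 7 and 13.6% of 279 in WT at day 14. The call in KO at day 4 was lost without KO day 0 replicate 2 (adjusted p = 0.0676), KO day 0 replicate 3 (0.14) or KO day 4 replicate 3 (0.0754), and with edgeR (0.0734). The WT day 7 call was lost without WT day 7 replicate 2 (0.057) or replicate 3 (0.0691), and scaling to library totals ended it (log2 0.5, adjusted p = 0.177) and the WT day 14 call (log2 0.45, adjusted p = 0.189).

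**Figure D4:**
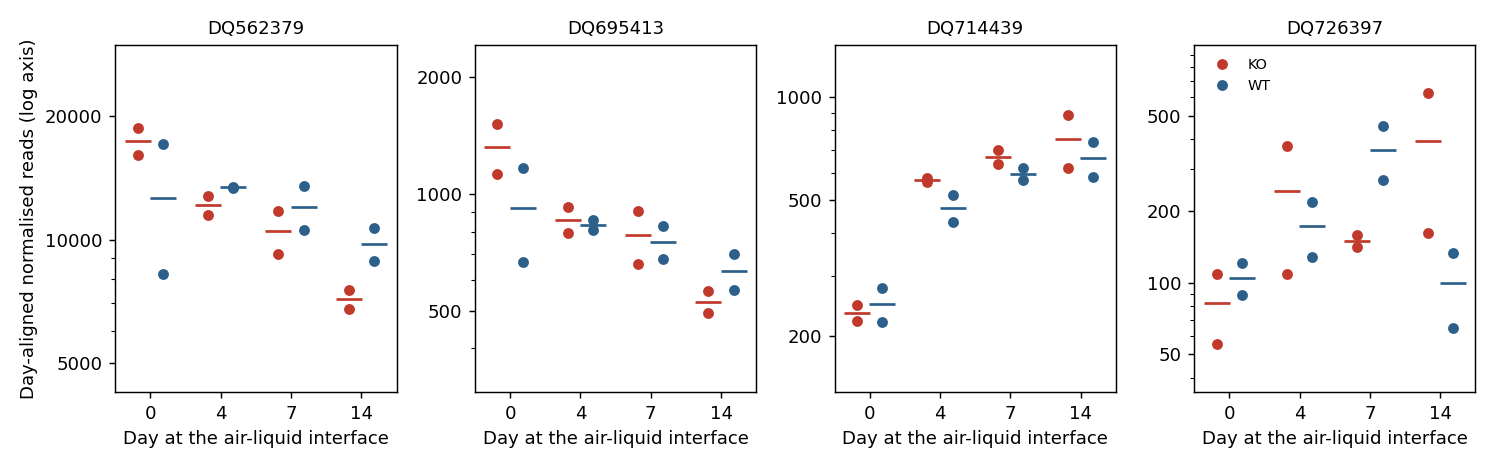
Day-aligned normalised reads (log axis) of the 4 piRNA-annotated rows listed at every day, by day, KO (red) left of WT (blue); points are libraries and bars are means of 2. DQ714439 is above its day 0 points at every later day in both genotypes, and DQ726397 is the row with the widest gaps between replicates.

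DQ562379 fell over the 2 weeks in KO, as did the miRNA whose reads it matches. KO libraries had 16100 and 18680 at day 0, 11510 and 12780 at day 4, 9204 and 11780 at day 7, and 6796 and 7552 at day 14. WT libraries had 17080 and 8253 at day 0, 13440 and 13390 at day 4, 10530 and 13520 at day 7, and 8857 and 10700 at day 14. The KO values of days 0 and 14 did not overlap, whereas both WT day 14 values lay between the WT day 0 values, which were 17080 and 8253.

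The log2 fold change of DQ562379 at day 14 over day 0 was -1.28 in KO (SE 0.33, limma adjusted p = 0.0101), against -0.29 in WT (SE 0.33, adjusted p = 0.567). miR-182-5p had -1.27 in KO and -0.28 in WT. Of its cluster neighbours, which have no matching DQ row, miR-183-5p had -1.49 in KO (adjusted p = 0.00339) and -0.5 in WT (adjusted p = 0.309). The other neighbour, miR-96-5p, did not follow, with -0.01 in KO (adjusted p = 0.986) and 1.46 in WT (adjusted p = 0.227). The genotype by day interaction of DQ562379 did not pass (F test in limma, adjusted p = 0.818), so the fall is not shown to differ between KO and WT. The KO call was lost without KO day 0 replicate 3 (adjusted p = 0.0806), KO day 14 replicate 2 (0.0671) or KO day 14 replicate 3 (0.0548), and with factors taken from miRNA rows (log2 -0.78, adjusted p = 0.0951).

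DQ695413 showed the same course as DQ562379 at a lower level. KO libraries had 1124 and 1517 at day 0, 925.1 and 792.5 at day 4, 658.4 and 906.6 at day 7, and 493.5 and 562.6 at day 14. WT libraries had 1167 and 669.7 at day 0, 809.2 and 858.9 at day 4, 680.8 and 827.7 at day 7, and 567.1 and 701.1 at day 14. KO values at day 14 were below every KO value of the earlier days, and the WT day 14 values overlapped those of WT day 0.

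At day 14 over day 0 the log2 fold change of DQ695413 was -1.31 in KO (SE 0.31, limma adjusted p = 0.00664), against -0.49 in WT (adjusted p = 0.312). miR-25-3p had -1.31 in KO and -0.49 in WT. The interaction did not pass (adjusted p = 0.854). The KO call was lost without KO day 0 replicate 3 (adjusted p = 0.0788) or KO day 14 replicate 2 (0.0512), and with factors from miRNA rows (log2 -0.81, adjusted p = 0.0701). The ratio of DQ562379 to DQ695413 stayed between 12.3 and 16.6 across the 16 libraries, with a median of 14.5.

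DQ726397 was the most variable of the 4 rows. KO libraries had 55.53 and 108.9 at day 0, 108.2 and 373.8 at day 4, 158.4 and 141.2 at day 7, and 621.2 and 160.9 at day 14. WT libraries had 88.65 and 121.2 at day 0, 127.8 and 217 at day 4, 269 and 452.5 at day 7, and 64.78 and 133.5 at day 14. The 2 replicates of a group differed by up to 3.86-fold in DQ726397 (KO day 14) and by up to 1.43-fold in DQ714439. WT was highest at day 7, and in KO 1 library at day 4 and 1 at day 14 stood far above the others.

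The KO day 14 over day 0 log2 fold change of DQ726397 was 2.01 (SE 0.64, limma adjusted p = 0.0298). It was lost without KO day 14 replicate 2 (log2 1.04, adjusted p = 0.301) or KO day 0 replicate 2 (1.53, adjusted p = 0.177), and with library totals (log2 1.66, adjusted p = 0.0543). In WT the value was 1.74 at day 7 (adjusted p = 0.0943), called by edgeR on recovered reads (log2 2.01, adjusted p = 0.0158) and by DESeq2 (log2 1.83, adjusted p = 0.000835), which called 5.72% of 297 rows and 11.9% of 193 rows there. At day 14 in WT it was -0.15 (adjusted p = 0.896).

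With DQ726397, 4 of the 5 rows tested in KO at day 14 over day 0 were called, 2 higher and 2 lower, against a background of 28.3% of 279 rows called, 11.1% higher and 17.2% lower. The 2 that were lower are the rows whose reads match miR-182-5p and miR-25-3p. DQ698457 was the row not called there, with a log2 fold change of 0.78 (adjusted p = 0.471).

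Between genotypes, limma called 0 of the 5 piRNA-annotated rows at days 0, 4, 7 and 14, and 0 of the 4 tested in the mean over days. The background share was 0% of 342 rows at day 0, 0.294% of 340 at day 4, 0.312% of 321 at day 7, 3.62% of 304 at day 14 and 2.57% of 272 in the mean over days. At an unadjusted p under 0.05 there was 1 such row, DQ726397 at day 14, where 56 of all 304 rows were. Elsewhere that threshold gave 27 of all 342 rows at day 0, 14 of 340 at day 4, 16 of 321 at day 7 and 46 of 272 in the mean over days. edgeR called 1 row at day 14, where it called 17.8% of 304 rows, and DESeq2 called 1 at day 7, where it called 0.935% of 321, and both times the row was DQ726397.

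DQ562379 had a KO over WT log2 fold change of 0.55 at day 0 (95% interval -0.15 to 1.25, limma adjusted p = 0.627), -0.15 at day 4 (-0.85 to 0.56), -0.2 at day 7 (-0.9 to 0.5) and -0.44 at day 14 (-1.14 to 0.26, adjusted p = 0.486). At day 14 both KO values lay under both WT values. DQ695413 had 0.56 at day 0 (-0.09 to 1.22), 0.04 at days 4 and 7, and -0.26 at day 14 (-0.92 to 0.4). For DQ714439 the values were -0.08 (day 0), 0.27 (day 4), 0.16 (day 7) and, at day 14, 0.17 (-0.4 to 0.75), so that a KO level more than 0.75 log2 units above WT at day 14 lies outside its interval.

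DQ726397 in KO stood on opposite sides of WT at the 2 late days, without passing the test. At day 7 its KO values (158.4 and 141.2) were both under its WT values (269 and 452.5), a log2 fold change of -1.22 (95% interval -2.58 to 0.15, limma adjusted p = 0.793). At day 14 its KO values (621.2 and 160.9) were both above its WT values (64.78 and 133.5), with a log2 fold change of 1.75 (0.39 to 3.12, adjusted p = 0.158). The interaction of genotype with day had a limma adjusted p of 0.583 over 272 rows (0.0327 before adjustment). In the interaction test 0 of 4 piRNA-annotated rows were called by limma, and 0% of all rows.

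By edgeR on recovered reads the day 14 value of DQ726397 was 2.06 (adjusted p = 0.0182), and by DESeq2 the day 7 value was -1.26 (adjusted p = 0.0496). In the authors' deposited table its log2 KO over WT was -1.19 at day 7 (adjusted p = 0.068) and 1.42 at day 14 (adjusted p = 0.287). Ribosomal RNA fragments lay on the same side at day 14: the median log2 fold change of the 15 rRNA rows tested was 1.13, 1 of them was called higher, and the median of all 304 rows was -0.01. At day 7, where DQ726397 was lower in KO, the 14 rRNA rows tested had a median of 0.07 and 0 were called by limma. At an unadjusted p under 0.05 there were 0 of them, against 16 of all 321 rows. The 5.8S rRNA row n-R5-8s1, picked after its values were seen, had 152.8 and 35.66 in KO at day 14 and 16.73 and 38.39 in WT, so the replicate high in DQ726397 was high in it too. At day 7 n-R5-8s1 had 24.95 and 26.17 in KO and 41.3 and 41.23 in WT. Both KO values were then under both WT values, as in DQ726397. Its part in the DQ726397 values was not tested, and over the 8 groups the same replicate was the higher in both rows in 5.

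**Figure D5:**
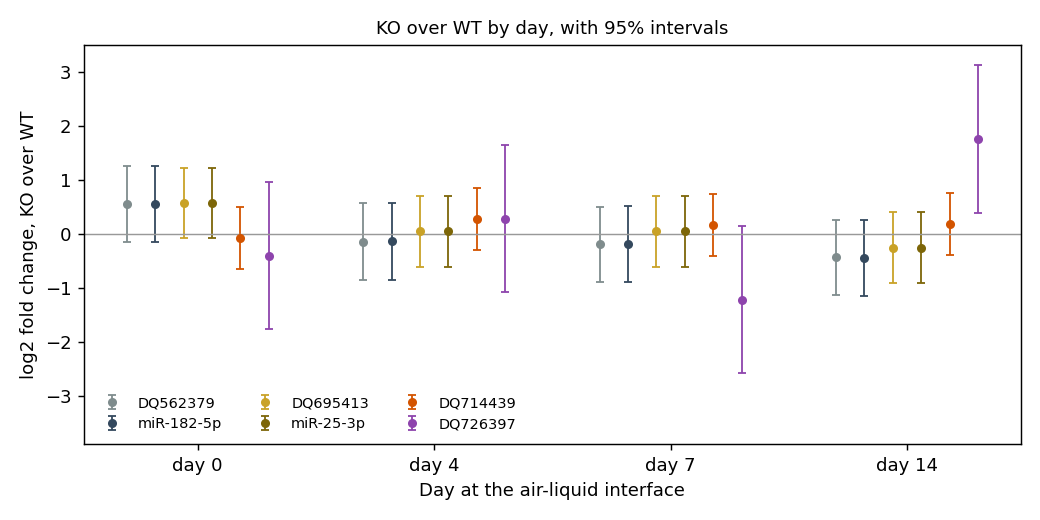
log2 fold change of KO over WT at each day, with 95% intervals from limma, for the 4 piRNA-annotated rows listed at every day and the 2 miRNAs with matching reads. DQ562379 and DQ695413 coincide with miR-182-5p and miR-25-3p, and DQ726397 lies at -1.22 at day 7 and 1.75 at day 14.

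In the authors' deposited table of KO over WT, 8 piRNA rows had an adjusted p-value at day 0 and 8 at day 4, with 11 at day 7 and 10 at day 14, and 0 of them were under 0.05. Few rows of any class were: 0 of 410 at day 0, 0 of 410 at day 4, 2 of 462 at day 7 and 26 of 444 at day 14. The lowest were 0.068 for DQ726397 at day 7 and 0.259 for DQ562379 at day 14. For DQ562379 the authors' deposited table gave a log2 of -0.44 at day 14, and for miR-182-5p -0.44 as well.

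The remaining 179 rows were close to the limit of detection. DQ541610, on chromosome 15, led them with 169 reads, and DQ698457, on chromosome 14, followed with 160. DQ541610 had 9.96 and 24.2 in KO at day 4, against 16.2 and 9.36 in WT, and 22.4 and 9.27 in KO at day 7, against 14 and 8.25 in WT. Its genotypes overlapped at both days, with log2 fold changes of 0.32 and 0.4 (limma adjusted p = 0.998 and 0.94).

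DQ698457 had 5.63 and 13 in KO at day 0, against 12.1 and 18.8 in WT, and 30.1 and 7.82 in KO at day 14, against 11.6 and 20 in WT. Its values overlapped as well (log2 -0.74 at day 0, adjusted p = 0.755, and 0.03 at day 14, adjusted p = 0.984). DQ717321, on the X chromosome, had 39 reads in KO day 4 replicate 3 and 1 to 7 in each of the other 7 libraries of days 0 and 4. That is the library in which DQ726397 was also the higher of the KO day 4 pair.

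DQ564431, DQ551739 and DQ685782, the next rows in mean share, had 52, 47 and 38 reads over days 0 and 4. Each had at most 12 reads in any library, and DQ551739 had 0 in WT day 0 replicate 2. A count of 0 in a library allows up to 3 reads, which is 4.38 to 15.2 RPM at days 0 and 4. Of the 51 low rows listed at both days, 8 had a read in each of the 8 libraries.

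At day 0, 79 and 100 of the 179 low rows had a read in the KO libraries, against 38 and 76 in WT. KO libraries were deeper at that day, and after thinning each library to 197497 reads the numbers were 38.2 and 57.5 in KO and 38 and 65.1 in WT. At day 4 the numbers with a read were 43 and 45 in KO and 42 and 37 in WT. Over both days the thinned number differed by -1.6 rows between KO and WT (exact permutation test, p = 0.778, smallest possible 0.0556). Summed, the low rows had 297 and 513 RPM in KO at day 0, against 630 and 324 in WT, and 215 and 444 in KO at day 4, against 220 and 250 in WT. The summed values of KO and WT overlapped at both days. Their mean KO minus WT difference was 11 RPM (exact permutation p = 1, smallest possible 0.0556). That mean joins opposite differences, -72.4 RPM at day 0 and 94.4 RPM at day 4. With 36 arrangements neither permutation test could pass the threshold, so neither can decide whether the genotypes differ in the low rows.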

How the data were processed

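The deposited table gave, per the file headers, read counts for each small RNA, but its values were a normalised signal that the authors had scaled within each day. Per the submitters' processing notes DESeq2 and mm10 were used; for the aligner, counting and annotation, nothing is given in the sources used here. Per the labels' protocols the RNA came from RNeasy columns and the library kit was TruSeq RNA. Each library's values were whole multiples of a step, which gave back its reads (100% of values below 400 were whole within 0.0055 of the deposited value). The authors' deposited log2 fold changes and adjusted p-values were copied, not recomputed. The days were aligned with 1 log2 shift each (0.251, 0.184, -0.404 and -0.085 at days 0, 4, 7 and 14, from 287 rows), and 5 predicted miRNA rows that repeat a named one were left out. limma 3.58.1 was fitted with a mean-variance trend to log2(value + 1) in R 4.3.3, for rows of 10 or more in at least 2 of 4 libraries of each day compared. It was tested on simulated data in which every row had the same spread and replicates were not paired, so that test does not cover rows as variable as DQ726397. edgeR 4.0.16 and DESeq2 1.42.0 ran on recovered reads of both genotypes, for the days compared alone, while limma was fitted to all 16 libraries. Shares were compared with two-sided exact permutation tests. Fold changes on the log2(value + 1) scale understate those of low rows. The rows named were the 10 with the highest mean share, any past the threshold and their matching rows. The members and lists were chosen with earlier results of these data known. Replicate numbers were checked for pairing over 286 rows. Deviations of same-numbered libraries correlated at 0.13 to 0.4 within KO (6 pairs of days), 0.06 to 0.25 within WT and -0.23 to 0.18 between genotypes (16 pairs). The numbers were taken to pair the KO libraries. Within WT the values were positive but lower, with a range that overlapped that of KO, so pairing in WT was not settled. The main limma fit had no replicate block and did not use the pairing.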

Additional observations from a re-analysis of the deposited data

How the results depend on the processing

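Calls of piRNA-annotated rows rest on 2 libraries a group, and the steps of days 7 and 14 rest on fewer low rows. The causes of the shifts below were not tested, except that leaving out a library leaves fewer samples; a lone sample is then assumed to vary like the other groups. For KO over WT the number called was 1 with DESeq2 at day 7 and 1 with edgeR at day 14, against 0 with limma. Over all 321 rows at day 7 DESeq2 called 3 and limma 1, and over all 304 rows at day 14 edgeR called 54 and limma 11. The libraries were not the same, as DESeq2 and edgeR were fitted to those of that day alone and limma to all 16. In WT over day 0 the number of piRNA-annotated rows called was 1 with the replicate block at day 4 (DQ714439, adjusted p = 0.0413). It was 2 with edgeR and 2 with DESeq2 at day 7, and 2 with library totals at day 14. With library totals at day 7 in WT the number stayed 1, but the row was DQ695413 (log2 -1.01, adjusted p = 0.0227, under a median of -0.86 over all rows) and not DQ714439. In KO over day 0 the number was 0 with edgeR at day 4, 3 with library totals at day 7 and 2 with factors from miRNA rows at day 14. Over all rows, library totals called 8 higher and 51 lower of 297 in KO at day 7. In WT they called 5 higher and 111 lower of 297 at day 7, and 4 higher and 133 lower of 279 at day 14. Factors from miRNA rows called 55 higher and 20 lower of 279 in KO at day 14. For edgeR in KO at day 4, the replicate block and libraries left out, no count over all rows is given. Leaving out 1 library gave 0 to 1 called in WT at day 7, 0 to 1 in KO at day 4 and 1 to 3 in KO at day 14. The replicate block changed no other number of calls. With library totals as the scale, the median log2 over all rows was -1.09 in WT at day 14 over day 0, and -0.36 in KO, so DQ562379 and DQ695413 at -1.25 and -1.45 in WT were called there at little more than that shift. With factors from miRNA rows it was 0.47 in KO at day 14 over day 0.

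The KO minus WT share difference ran from -0.0874 to 0.449 points when 1 library was left out, and was -3.03 points with non-miRNA rows as denominator. The day 14 minus day 0 share difference ran from -2.95 to -1.87 points when 1 library was left out; without DQ562379 and DQ695413, an alternative chosen after the data were seen, it was 0.069.

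Small uncalled log2 values changed sign. With library totals, KO over WT was 0.01 for DQ562379 at day 4 and 0.05 in the mean over days, and 0.11 for DQ695413 at day 14; over day 0 in WT, DQ562379 was -0.27 at day 4 and -0.76 at day 7, and DQ698457 -0.88 at day 14. In WT over day 0, DESeq2 gave -0.02 for DQ562379 at day 7, edgeR gave 0.01 for DQ695413 at day 4 and 0.01 for DQ726397 at day 14, and factors from miRNA rows gave 0.03 for DQ726397 at day 14. Leaving out 1 library gave these ranges of KO over WT. DQ714439 had -0.24 to 0.09 at day 0 and -0.08 to 0.43 at day 14. DQ726397 had -0.89 to 0.07 at day 0, -0.62 to 1.16 at day 4 and -0.14 to 0.34 in the mean over days. DQ541610 had -0.29 to 0.92 at day 4 and -0.2 to 0.99 at day 7. DQ695413 had -0.07 to 0.15 at day 4, -0.19 to 0.27 at day 7 and 0 to 0.2 in the mean over days. DQ698457 had -0.88 to 0.93 at day 14, and DQ562379 had -0.19 to 0.07 in the mean over days. Over day 0 in WT, DQ562379 had -0.35 to 0.7 at day 4, -0.52 to 0.53 at day 7 and -0.81 to 0.24 at day 14, and DQ695413 had -0.48 to 0.32 at day 4 and -0.64 to 0.16 at day 7. At day 14 in WT, DQ698457 had -0.35 to 0.39 and DQ726397 -0.67 to 0.36, and in KO DQ698457 had -0.13 to 1.69.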
